A study of Mus musculus with 12 samples.

Results

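Eukaryotic nuclear genes are transcribed by 3 RNA polymerases, and 31 of the 23420 gene entries in each deposited table were taken here as their subunits. The choice was by name: 28 carry a symbol of the Polr1, Polr2 or Polr3 series, and Cd3eap, Twistnb and Znrd1 are older symbols of Pol I subunits. Crcp, a Pol III stalk protein without a Polr symbol, is not among the 31. By role, 6 belong to Pol I alone, 8 to Pol II alone and 10 to Pol III alone, while 2 are shared by Pol I and Pol III and 5 by all 3 enzymes. One of the 8, Polr2m (GDOWN1), is a protein that associates with Pol II and is not a core subunit.

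The cells were R1 mouse embryonic stem cells, a cultured line grown on gelatin in serum medium with LIF, and were analysed 48 h after transfection. The control group of 3 lysates is named siGFP, siNC and Lipo, and the knockdown group of 3 lysates received siRNAs against Krr1, a nucleolar assembly factor of the small ribosomal subunit. The labels speak of 3 different control siRNAs, although the name Lipo states none. The knockdown columns of the tables are lettered A, C and D while the titles are numbered, so each column is tied to its group and lysate (siKrr1 A, C, D) but not to a title. Every lysate was split between RNA-seq and ribosome profiling, which counts the mRNA fragments held by ribosomes (footprints). This gave 12 libraries. The labels do not state that lysates came from separate cultures, so the p-values measure the spread between these samples, each group of which mixes different siRNAs.

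Pol I makes the large ribosomal RNA precursor in the nucleolus, Pol II makes mRNA and many small nuclear RNAs, and Pol III makes tRNA, 5S ribosomal RNA and other short RNAs. Each enzyme is built around a largest and a second catalytic subunit, an assembly platform, a set of small common subunits and a stalk. Pol I and Pol III also carry built-in counterparts of Pol II transcription factors. The largest Pol II subunit has a long C-terminal repeat tail that is phosphorylated during the transcription cycle. Pol III exists in alternative forms that hold either Polr3g, known for its abundance in pluripotent cells, or its paralog Polr3gl.

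The libraries held 31318772 to 39670139 counts on genes in RNA and 21615934 to 28911254 in footprints. Krr1 RNA was 155, 151 and 160 CPM (counts scaled by library size and TMM factor) in the controls and 33.7, 58.0 and 64.6 CPM in the knockdown libraries. Here and below, values of the 3 controls are listed in the order siGFP, siNC, Lipo and those of the 3 knockdown libraries in the order A, C, D. Knockdown cells thus kept 33.5% ± 10.4 of the control RNA (SD, n = 3) and 29.3% ± 9.45 of the control footprints. All 12 embryonic stem cell markers were above 5 CPM in controls. Their summed RNA was 8995 to 9164 CPM in controls and 7255 to 8557 in knockdown cells, and their summed footprints 7324 to 7475 and 5767 to 6578. The fall was uneven. In RNA, Tbx3, Tfcp2l1, Klf4, Nanog, Zfp42 and Esrrb had log2 fold changes of -1.08 to -0.36 (edgeR adjusted p 0.00169 to 0.0290). Pou5f1 and Utf1 stood at -0.13 in RNA, and Sox2, Lin28a, Sall4 and Dppa5a at 0.03 to 0.04, and none of these passed. The neural ectoderm list summed to 152 to 164 CPM of RNA in controls and 103 to 124 in knockdown cells (footprints 159 to 181 and 121 to 145), but its members moved in opposite directions. Tubb3, the neuronal tubulin, fell by 0.82 on the log2 scale in RNA (edgeR adjusted p = 0.00299), while Nes rose by 0.85 (0.0149) and Neurod1 by 1.39 (0.0118). The trophectoderm list summed to 9.24 to 10.1 CPM of RNA in controls and 9.29 to 16.6 in knockdown cells, and in footprints to 13.4 to 16.0 and 21.2 to 35.3, with no overlap. Only 1 of its 6 genes had a control mean of at least 5 CPM. Krt7 rose by 2.57 in RNA (edgeR adjusted p = 0.0175), and Gata3 by 1.87 in footprints (edgeR adjusted p = 0.0189), on 8 to 19 control counts. Tfap2c, Cdx2 and Hand1 passed in neither assay, with Tfap2c at 0.80 in footprints (edgeR adjusted p = 0.0623). Elf5 was not tested, and its RNA was 0.231 to 0.289 CPM in controls and 0.161 to 0.211 in knockdown cells. The mesoderm list summed to 14.1 to 16.3 and 14.4 to 24.3 CPM of RNA and to 25.5 to 27.0 and 23.3 to 41.4 CPM of footprints. Its members also moved in opposite directions. Kdr rose by 1.49 in RNA (edgeR adjusted p = 0.0180) and 1.51 in footprints (edgeR adjusted p = 0.0244). Eomes stood at -0.57 in footprints (edgeR adjusted p = 0.0340) and at -0.45 in RNA, where it did not pass (edgeR adjusted p = 0.129). The endoderm list summed to 2.95 to 3.58 CPM of RNA in controls and 2.55 to 2.99 in knockdown cells. In footprints it summed to 3.96 to 4.95 and 3.06 to 3.25 CPM, lower and with no overlap. None of its 6 genes had a control mean of at least 5 CPM. No endoderm gene that could be tested passed in either assay, the smallest edgeR adjusted p being 0.191 for Sox7 footprints. The 8 fibroblast markers summed to 8.65 to 9.89 CPM of RNA in controls and 5.08 to 9.87 in knockdown cells (footprints 17.6 to 20.8 and 12.5 to 19.8), with 5 of 8 above 0 in every library and Col3a1 and Lum at 0 in every RNA library. The part of these marker shifts in the values below was not tested. In bulk lysates, fewer cells of a type and less RNA per cell cannot be told apart, and CPM are relative to the other RNAs of a library.

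The first comparison set the subunit mRNAs of knockdown cells against those of control cells. None of the 31 subunit mRNAs passed the edgeR quasi-likelihood test at an adjusted p under 0.05, where 4.8% of all 14038 genes tested did. DESeq2 called 0 of 31 as well, where it called 9.09% of all genes, and 4 had an unadjusted edgeR p under 0.05 (Znrd1, Polr2a, Polr2l and Polr3gl), where 20.9% of all genes had one. The log2 fold changes of the 31 ran from -0.35 for Polr3gl to 0.25 for Polr2a, with 13 above 0 and 18 below. Of all genes tested, 6989 lay above 0 and 7049 below.

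Set side by side, the enzymes had close medians. The median log2 fold change in RNA was 0.04 over the 6 Pol I subunits, -0.05 over the 8 Pol II subunits, -0.06 over the 10 Pol III subunits and -0.10 over the 7 shared ones, and -0.00 over all genes tested. Knockdown lysates differed among themselves most for Pol I, whose median deviation from the controls was 0.11, 0.01 and -0.12 in the knockdown libraries. For Pol II the same 3 values were 0.02, -0.02 and -0.03, and for Pol III 0.01, -0.02 and -0.08. For the shared subunits they were -0.02, -0.10 and -0.17, so siKrr1 D was the lowest of the 3 in each of these groups. In Pol II this depended on Polr2a: without it the values were 0.004, -0.08 and -0.05, with siKrr1 C the lowest.

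The intervals around these changes were narrow beside those of other genes. The 95% interval of the RNA change lay within 1.5-fold of the control level for 30 of the 31 subunits, Polr3gl being the exception. The same held for 64% of all genes tested, and the median SE was 0.08 for the subunits against 0.12 for all genes. All genes were not matched to the subunits in count depth, and the part of depth in this difference was not tested.

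**Figure D1:**
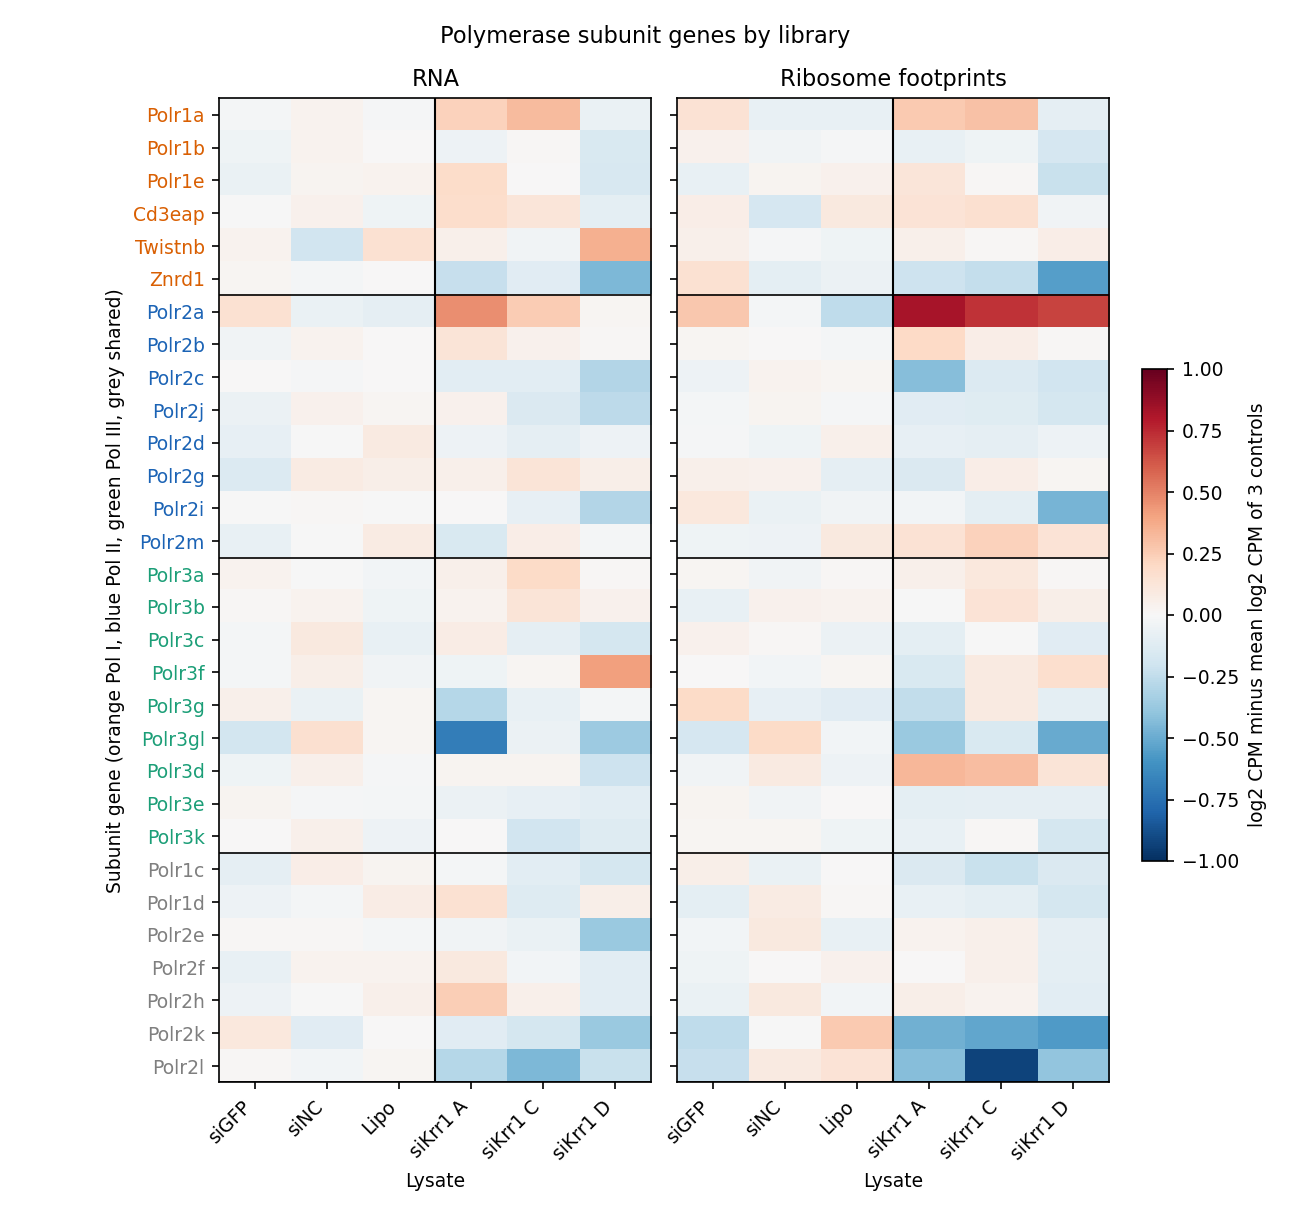
Heat map of 30 subunit genes (vertical axis, coloured by enzyme) in 6 RNA and 6 footprint libraries (horizontal axis). Colour gives log2 CPM minus the mean log2 CPM of the 3 controls of that assay. Polr2a is the 1 gene that is dark red in all 3 knockdown footprint libraries.

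Footprints gave 1 call among the 31 subunits, a rise of Polr2a (RPB1), the largest subunit of Pol II, where 3.39% of the 13287 genes tested were called higher and 6.07% in either direction. Polr2a (chromosome 11, 69733997 to 69758633, mm10) overlaps no other annotated gene. Its footprints were 421, 346 and 293 CPM in controls, against 620, 576 and 558 CPM after knockdown. Every knockdown library lay above every control, although the controls differed among themselves by a wide margin. The mean went from 353 ± 64.4 to 585 ± 32.3 CPM (SD, n = 3), a log2 fold change of 0.73 ± 0.11 (SE) or 1.65-fold, with an edgeR adjusted p of 0.00423. Leaving out any 1 library gave a log2 fold change of 0.61 to 0.87, and the largest edgeR adjusted p was 0.0287, without siNC.

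Polr2a RNA moved less. It was 68.4, 59.1 and 58.1 CPM in controls and 85.3, 73.5 and 62.5 CPM in knockdown libraries. The groups overlapped, since siKrr1 D lay below siGFP. Its log2 fold change of 0.25 ± 0.11 did not pass (edgeR adjusted p = 0.224).

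The second catalytic subunit, Polr2b (RPB2; chromosome 5, 77310484 to 77349328), did not pass in either assay. Its footprints were 425, 421 and 413 CPM in controls and 482, 440 and 424 CPM in knockdown libraries, so siKrr1 D lay within the controls. It differed by 0.10 ± 0.06 on the log2 scale in footprints (edgeR adjusted p = 0.365) and 0.06 ± 0.07 in RNA (edgeR adjusted p = 0.664). Its locus overlaps Igfbp7, and the strand setting of the counting is not given in the sources used here.

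**Figure D2:**
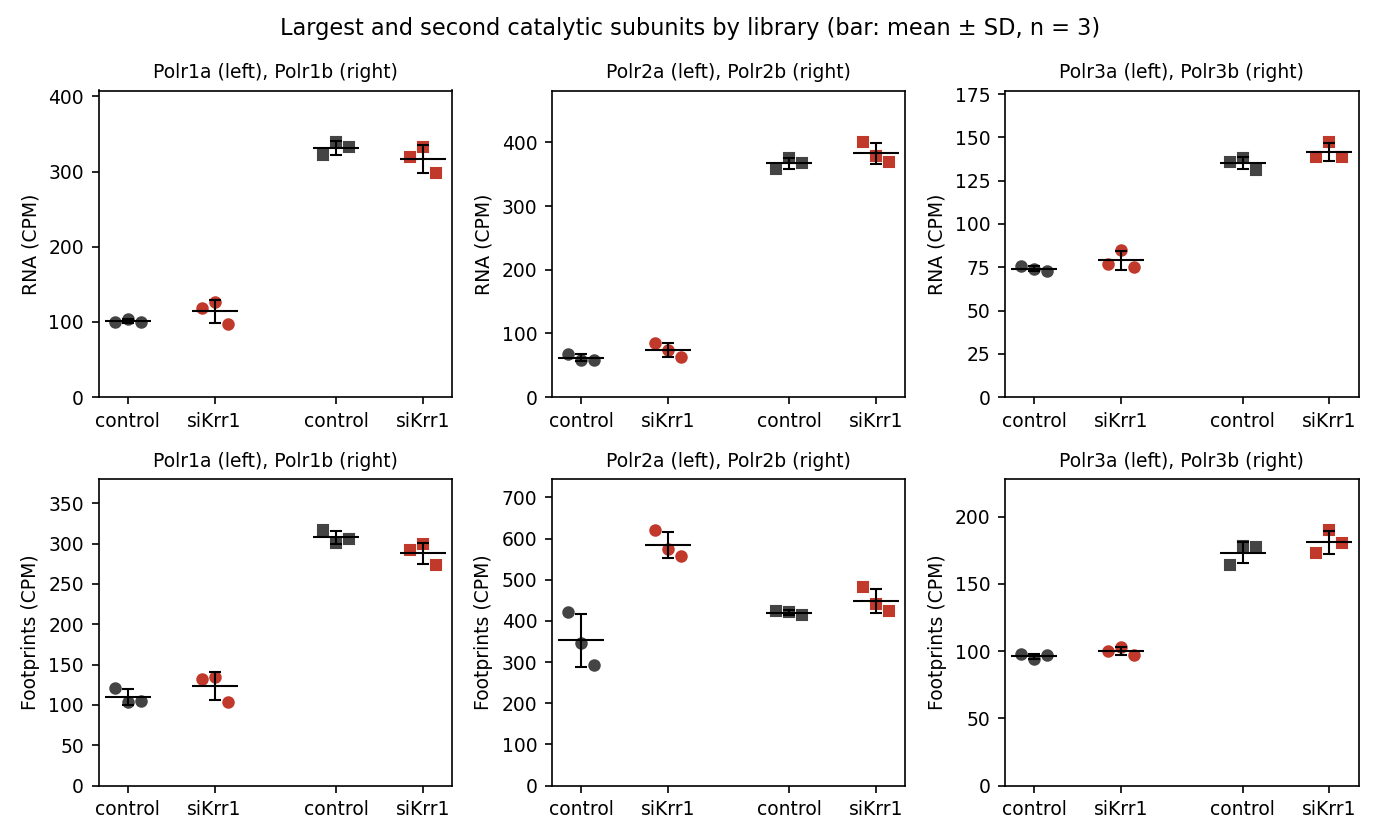
CPM of the largest (circles) and second (squares) catalytic subunit of each enzyme, RNA above and footprints below, in 3 control (grey) and 3 siKrr1 (red) libraries, with bars for the mean ± SD. The Polr2a footprints of the knockdown libraries, 558 to 620 CPM, lie above the 293 to 421 CPM of the controls.

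The largest subunits of the other enzymes gave no call. Polr1a (RPA194; chromosome 6, 71909053 to 71979435) stood at 122, 104 and 104 CPM in control footprints and at 132, 134 and 103 CPM after knockdown. Both siKrr1 A and C lay above the controls, while siKrr1 D lay just below them. This gave a log2 fold change of 0.16 ± 0.10 (edgeR adjusted p = 0.382). In RNA it was 99.9, 104 and 100 CPM in controls and 119, 126 and 96.8 CPM in knockdown libraries, the same pattern, with a log2 fold change of 0.17 ± 0.09 (edgeR adjusted p = 0.350).

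Polr3a (RPC1; chromosome 14, 24448694 to 24487070) had 97.5, 93.8 and 97.1 CPM in control footprints and 99.8, 103 and 97.0 CPM after knockdown. The groups overlapped, and the log2 fold change was 0.06 ± 0.06 (edgeR adjusted p = 0.624). Its RNA was 76.0, 74.1 and 72.8 CPM in controls and 76.7, 85.0 and 75.0 CPM in knockdown libraries, again with overlap and a log2 fold change of 0.09 ± 0.08 (edgeR adjusted p = 0.560).

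The second subunits of Pol I and Pol III did not pass either. Polr1b (RPA135) footprints were 317, 301 and 306 CPM in controls and 292, 299 and 274 CPM after knockdown, all below the controls by a small margin (log2 fold change -0.10 ± 0.05, edgeR adjusted p = 0.338). Its RNA was 322, 340 and 333 CPM in controls and 319, 333 and 298 CPM in knockdown libraries, with overlap (-0.07 ± 0.07, edgeR adjusted p = 0.650). Polr3b (RPC2) RNA was 136, 138 and 131 CPM in controls and 138, 148 and 139 CPM after knockdown (0.07 ± 0.07, edgeR adjusted p = 0.622). Among the 31 genes taken by name, it was the only one whose knockdown libraries all lay above the controls in RNA. Its footprints overlapped, at 164, 178 and 177 CPM in controls and 173, 190 and 180 CPM in knockdown libraries (0.06 ± 0.06, edgeR adjusted p = 0.584).

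The ratio of the largest to the second subunit within a library needs no scaling between libraries. The ratio was taken after the values had been seen, and 3 against 3 libraries cannot give an exact p below 0.1, so it is a description. In footprints, Polr2a counts were 0.992, 0.820 and 0.710 of the Polr2b counts in controls and 1.29, 1.31 and 1.31 after knockdown. The control ratios were spread out and the knockdown ratios nearly equal, with no overlap. In RNA the same ratio was 0.191, 0.157 and 0.158 in controls and 0.213, 0.195 and 0.169 in knockdown libraries, with overlap.

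For Pol I, the Polr1a to Polr1b ratio in RNA was 0.310, 0.307 and 0.302 in controls and 0.373, 0.379 and 0.325 after knockdown, and here the groups did not overlap. In footprints it was 0.384, 0.346 and 0.341 in controls and 0.452, 0.449 and 0.377 in knockdown libraries, which overlapped. For Pol III the groups overlapped in both assays, with footprint ratios of Polr3a to Polr3b of 0.526 to 0.595 in controls and 0.538 to 0.577 in knockdown cells. The RNA ratio of this pair had means of 0.550 ± 0.012 in control and 0.557 ± 0.018 in knockdown libraries (SD, n = 3).

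**Figure D3:**
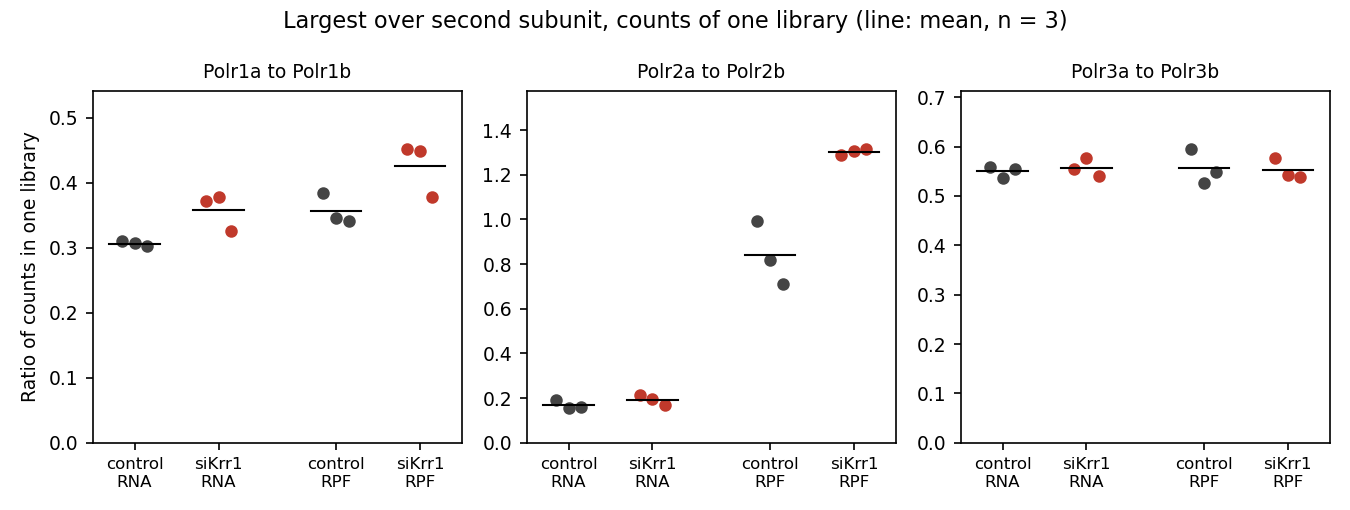
Count ratio of the largest to the second catalytic subunit of each enzyme (vertical axis, no unit) in 3 control (grey) and 3 siKrr1 (red) libraries of RNA and of footprints (RPF), with a line for the mean. The Polr2a to Polr2b footprint ratio is at most 0.992 in controls and at least 1.29 in knockdown libraries, while the Pol III pair lies between 0.526 and 0.595 in footprints.

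Summed over an enzyme's own genes, Pol II footprints were 1338 to 1491 CPM in controls and 1567 to 1710 CPM in knockdown cells. Without Polr2a the sums were 1045 to 1070 and 1009 to 1089 CPM, which overlap. Polr2a took 28.3%, 24.8% and 21.9% of the footprint counts of the 8 Pol II genes in controls, and 36.3%, 34.9% and 35.6% after knockdown. The Pol I sums were 706 to 768 CPM in controls and 631 to 733 in knockdown cells, and those of Pol III 701 to 720 and 695 to 749, both overlapping. The 7 shared genes summed to 873 to 895 CPM in controls and 810 to 855 in knockdown cells, with no overlap. Their members differed, and none was called. By mean footprints, Polr1c went from 312 to 277 CPM and Polr1d from 80.3 to 74.0 CPM. Polr2e went from 266.7 to 266.6 CPM and Polr2f from 163.8 to 162.0 CPM.

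No other subunit passed in footprints. The median log2 fold changes were 0.01 for Pol I, -0.04 for Pol II, -0.02 for Pol III and -0.12 for the shared subunits, beside 0.01 for all genes tested. Of the 31, 11 lay above 0 and 20 below, where 6845 of all genes lay above and 6442 below. None of the 7 shared genes lay above 0, but Polr2e, Polr2h and Polr2f were within 1 SE of it (-0.001, -0.004 and -0.017). At an unadjusted edgeR p under 0.05 there were 9 subunits, where 22.5% of all genes had one. The 95% interval stayed within 1.5-fold for 27 of 31 subunits, the exceptions being Polr2a, Polr2k, Polr2l and Polr3gl, and for 65.6% of all genes.

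Groups did not overlap for 7 of the 31 in RNA, where 27% of all genes tested did not overlap (13.6% higher and 13.4% lower), and for 12 of 31 in footprints, where the share was 27.9% (14.3% higher and 13.6% lower). In RNA, Polr3b was the gene higher and Znrd1, Polr2c, Polr2e, Polr2k, Polr2l and Polr3e were lower. In footprints, Polr2a, Polr2m and Polr3d were higher and Polr1b, Znrd1, Polr1c, Polr2c, Polr2j, Polr2d, Polr2k, Polr2l and Polr3e were lower.

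**Figure D4:**
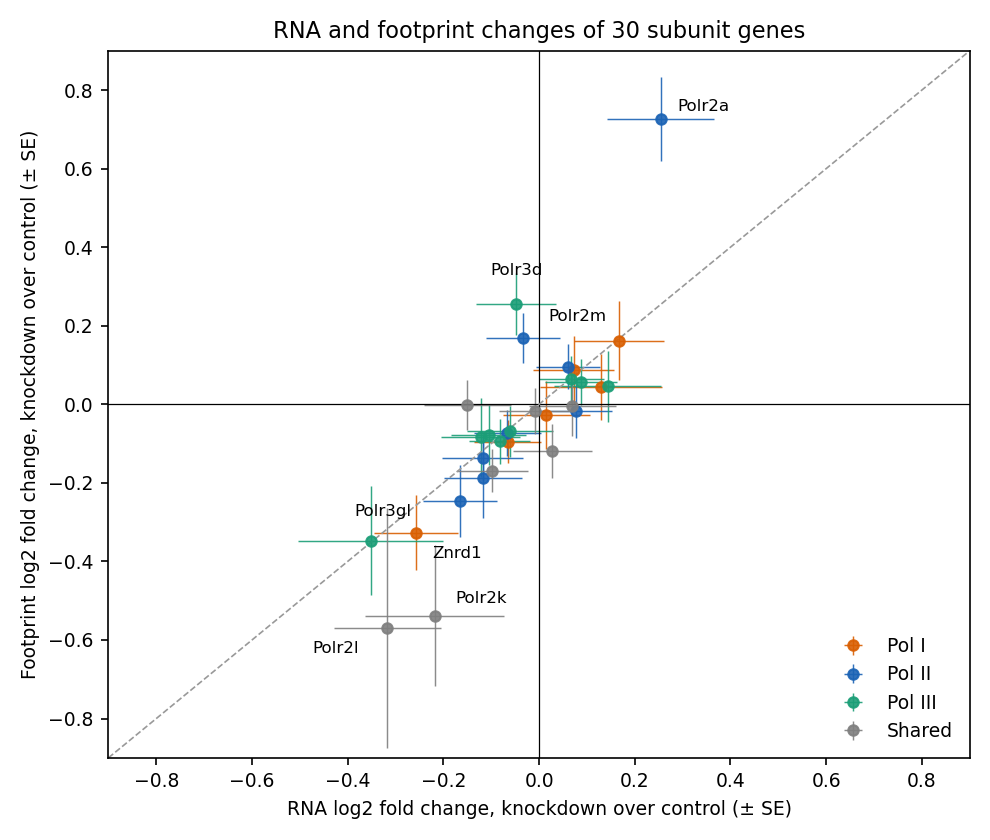
Log2 fold change (knockdown over control) in RNA (horizontal) and in footprints (vertical) of 30 subunit genes, with bars of ± 1 SE and a dashed line of equal change. Polr2a lies at 0.25 in RNA and 0.73 in footprints, and the other genes lie between -0.57 and 0.26 in footprints.

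The second comparison was of the footprint change with the RNA change, the change in translational efficiency. It was tested as the interaction of assay and condition over the 12 libraries, first without the lysate. In that fit edgeR called 0 subunits and 0% of 14236 genes, 2.37% had an unadjusted p under 0.05, and DESeq2 called 0.014%. Polr2a had the largest difference of the subunits, 0.47 ± 0.17 (edgeR adjusted p = 1.00), and with Polr3d (0.30 ± 0.12) it was 1 of 2 with an unadjusted p under 0.05.

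Each lysate gave both libraries, and with the lysate as a block the Polr2a difference passed. It was then 0.49 ± 0.08 (95% interval 0.32 to 0.66, edgeR adjusted p = 0.0422), and 6 genes in all were called, 0.0421% of those tested, with 0.0351% called higher. The call is not firm: with siGFP, siNC, Lipo or siKrr1 D left out of the blocked model the edgeR adjusted p was 0.0956, 0.104, 0.280 and 0.138, while the difference stayed between 0.41 and 0.56 in all 6 cases.

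The footprint to RNA ratio of Polr2a was high in control cells too. It was 6.16, 5.85 and 5.05 in control lysates and 7.27, 7.83 and 8.92 in knockdown lysates. The groups did not overlap. The control mean of 2.50 ± 0.15 on the log2 scale (SD, n = 3) ranked 110 of 12277 genes, with 99.1% of them at or below it. Over all those genes the median was -0.19 and the middle 90% ran from -1.86 to 1.42.

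By enzyme, the median log2 ratio in controls was -0.02 over the Pol I genes, -0.35 over the Pol II genes, -0.74 over the Pol III genes and -1.07 over the shared ones. The lowest was Polr2l at -3.63. These ratios set assays of different fragment length side by side, and no coding or transcript lengths entered them. The parts of fragment length and gene length in the order of genes were not tested.

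**Figure D5:**
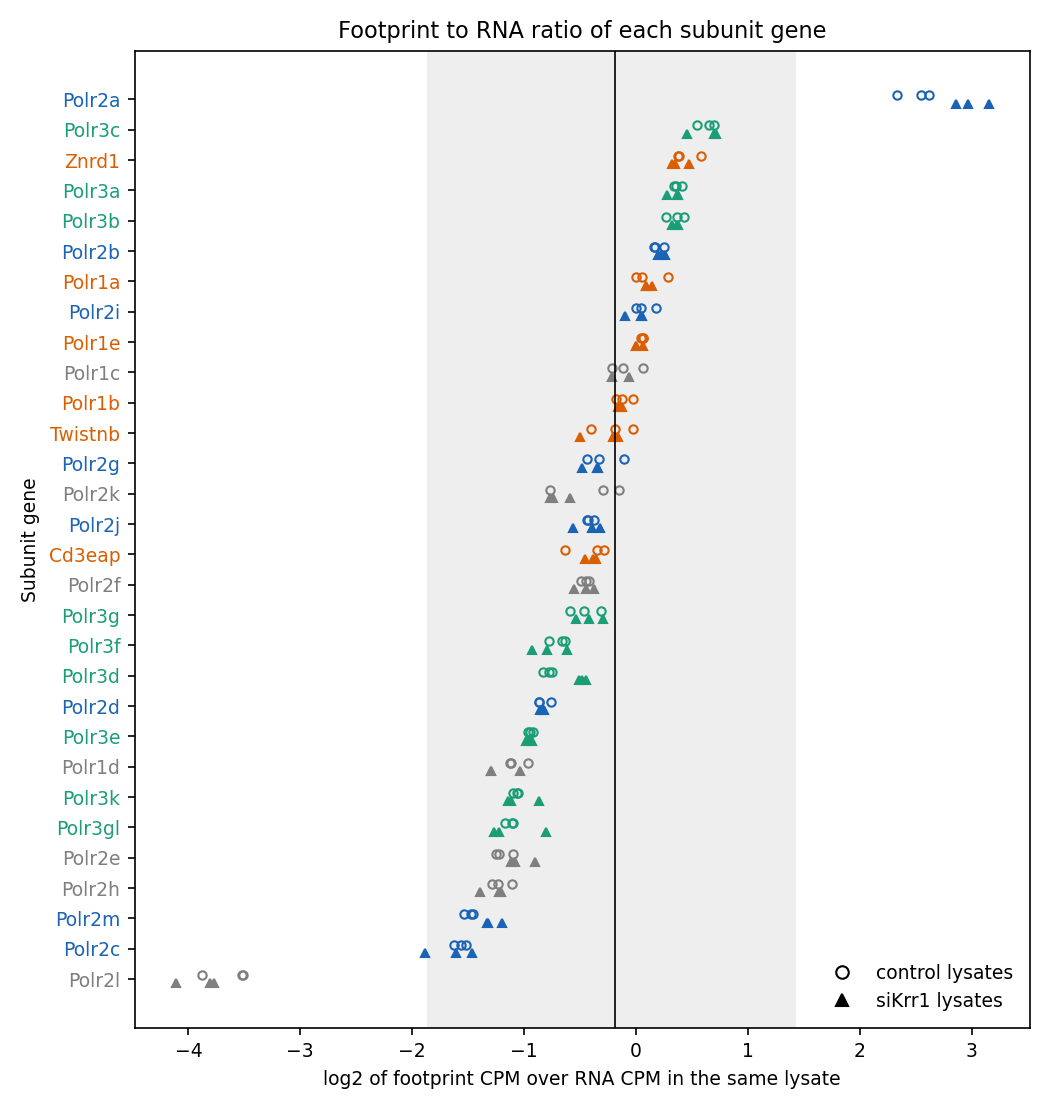
Log2 of footprint CPM over RNA CPM of 30 subunit genes in 3 control (open circles) and 3 siKrr1 (triangles) lysates, with the genes ordered by their control mean. The grey band spans the middle 90% of 12277 genes and the line is their median, -0.19. Polr2a at the top and Polr2l at the bottom lie outside the band, and the Polr2a triangles lie above its circles.

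Among the other Pol I subunits, Znrd1 (RPA12; chromosome 17, 36954358 to 36958525), the zinc-ribbon subunit that serves RNA cleavage, had the lowest fold changes. Its RNA was 108, 105 and 107 CPM in controls and 90.8, 98.8 and 78.3 CPM in knockdown libraries, and its footprints 162, 136 and 140 CPM and 127, 123.4 and 99.6 CPM. All knockdown libraries lay below all controls in both assays, with siKrr1 D the lowest. The change was -0.26 ± 0.09 in RNA (edgeR adjusted p = 0.120) and -0.33 ± 0.10 in footprints (edgeR adjusted p = 0.0697). Neither passed, but DESeq2 called the footprint difference (adjusted p = 0.0168), as it did 9.44% of all genes. The TFIIF-like pair Polr1e and Cd3eap and the stalk subunit Twistnb lay between 0.01 and 0.13 in RNA and between -0.03 and 0.09 in footprints. The loci of Polr1e and Cd3eap overlap Fbxo10 and Ercc1.

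Of the platform subunits, which start assembly of the enzymes, those of Pol II are Polr2c (RPB3) and Polr2j (RPB11), and Pol I and Pol III share Polr1c and Polr1d. Polr2c RNA was 85.2, 84.3 and 85.4 CPM in controls and 79.0, 79.1 and 69.2 CPM after knockdown, and its footprints 27.6, 29.4 and 29.0 CPM and 21.4, 26.0 and 25.1 CPM. The knockdown libraries were lower throughout. The log2 fold change of -0.17 ± 0.08 in RNA and -0.25 ± 0.09 in footprints did not pass (edgeR adjusted p = 0.246 and 0.138), and the locus overlaps Dok4. Polr1c, Polr1d and Polr2j lay between -0.12 and 0.03 in RNA and between -0.17 and -0.12 in footprints, the smallest edgeR adjusted p being 0.0961 for Polr1c.

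The Pol II stalk subunits Polr2d and Polr2g and the zinc-ribbon subunit Polr2i, whose locus overlaps Tbcb, lay between -0.12 and 0.08 in RNA and between -0.19 and -0.02 in footprints. Polr2m footprints were 100.5, 100.0 and 111 CPM in controls and 114, 122 and 114 CPM in knockdown libraries. They did not overlap, yet the log2 fold change of 0.17 ± 0.06 did not pass (edgeR adjusted p = 0.143), and in RNA it was -0.03.

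The subunits common to all 3 enzymes are Polr2e, Polr2f, Polr2h, Polr2k and Polr2l. Polr2l (RPB10; chromosome 7, 141471860 to 141475153) had 13.98, 13.56 and 14.01 CPM of RNA in controls and 11.3, 10.2 and 11.8 CPM after knockdown. The controls agreed closely and all knockdown libraries lay below them, but the log2 fold change of -0.32 ± 0.11 did not pass (edgeR adjusted p = 0.134). Its footprints rest on 14 to 33 counts per library, and the value of -0.57 ± 0.31 (edgeR adjusted p = 0.304) is correspondingly uncertain.

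Polr2k (RPB12), with 80 to 151 footprint counts per library, stood at 4.31, 5.15 and 6.16 CPM in controls and 3.69, 3.60 and 3.49 CPM in knockdown libraries. The knockdown libraries were lower and closer together than the controls. On the log2 scale the change was -0.54 ± 0.18 (edgeR adjusted p = 0.103), against -0.22 ± 0.14 in RNA. Polr2k overlaps Spag1 and has a named pseudogene, so the assignment of its reads is uncertain.

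Polr2h (RPB8) had the highest RNA fold change of the shared genes. Its RNA was 116, 119.5 and 124 CPM in controls and 142, 124 and 111 CPM after knockdown. One knockdown library lay above the controls and another below (log2 fold change 0.07 ± 0.09). Polr2e (RPB5) RNA was 610.4, 611 and 600.1 CPM in controls and 593, 581 and 468 CPM in knockdown libraries, where siKrr1 D stood apart. The change of -0.15 ± 0.09 did not pass (edgeR adjusted p = 0.381), and in footprints Polr2e was at -0.00 ± 0.06 and Polr2f at -0.02 ± 0.06.

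Among the Pol III subunits, the paralogs Polr3g and Polr3gl give the alternative forms of the enzyme. Polr3g (chromosome 13, 81673837 to 81711013) RNA was 128, 117 and 125 CPM in controls and 101, 117 and 122 CPM after knockdown. The groups overlapped, with siKrr1 A the lowest (log2 fold change -0.12 ± 0.08, edgeR adjusted p = 0.446). Its footprints overlapped as well, at 103, 85.1 and 82.9 CPM in controls and 75.8, 95.6 and 83.9 CPM in knockdown libraries (-0.08 ± 0.10, edgeR adjusted p = 0.683).

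Polr3gl (chromosome 3, 96577872 to 96594181) RNA was 22.1, 28.1 and 25.4 CPM in controls and 15.6, 24.1 and 19.5 CPM after knockdown. Here siKrr1 C lay within the controls and the other two below them. The change was -0.35 ± 0.15 (edgeR adjusted p = 0.210), and without siKrr1 C it was -0.51 and passed (edgeR adjusted p = 0.0458). Its footprints were 10.3, 13.1 and 11.3 CPM in controls and 8.90, 10.3 and 8.09 CPM in knockdown libraries, with a log2 fold change of -0.35 ± 0.14 (edgeR adjusted p = 0.166).

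The count ratio of Polr3g to Polr3gl overlapped between groups. It was 4.18 to 5.78 in control RNA and 4.85 to 6.51 in knockdown RNA, and 6.49 to 10.03 and 8.51 to 10.4 in footprints.

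Polr3d (RPC4; chromosome 14, 70438748 to 70443471), part of the TFIIF-like module of Pol III, was the gene of this enzyme with the highest fold change in footprints. Its footprints were 42.1, 45.8 and 41.5 CPM in controls and 54.2, 53.4 and 47.1 CPM after knockdown, all above the controls. The log2 fold change of 0.26 ± 0.08 did not pass (edgeR adjusted p = 0.0855). Its RNA was 72.2, 77.0 and 73.9 CPM in controls and 75.6, 75.8 and 64.2 CPM in knockdown libraries, at -0.05 ± 0.08.

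The footprint to RNA ratio of Polr3d was 0.562 to 0.595 in control lysates and 0.704 to 0.733 in knockdown lysates, which do not overlap. With the lysate as a block the difference was 0.30 ± 0.07 and missed the threshold (edgeR adjusted p = 0.285). Polr2a, Polr2m and Polr3d were the 3 subunits whose ratios did not overlap, all higher, where 12.4% of 12277 genes did not overlap and 6.83% were higher.

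Polr3f (RPC6), of the initiation subcomplex, had the highest RNA fold change of Pol III. Its RNA was 57.8, 60.9 and 57.0 CPM in controls and 56.8, 59.3 and 77.9 CPM after knockdown. That fold change rested on siKrr1 D, the other two lying near or within the controls (log2 fold change 0.14 ± 0.11, edgeR adjusted p = 0.514). Other members are Polr3c of the same subcomplex, Polr3e of the TFIIF-like module and the cleavage subunit Polr3k. They lay between -0.11 and -0.06 in RNA and between -0.09 and -0.07 in footprints.

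The factors that work with each enzyme gave a similar picture. None of the 7 Pol I factors, 18 Pol II initiation factors, 21 Pol II elongation factors and 18 Pol III factors tested passed edgeR or DESeq2 in RNA or in footprints. Over all genes edgeR called 4.8% in RNA and 6.07% in footprints, and DESeq2 9.09% and 9.44%. Their median log2 fold changes in RNA were 0.11, -0.03, -0.01 and 0.00, and in footprints 0.04, -0.06, 0.04 and 0.01. Rrn3, the Pol I initiation factor that links it to promoters, stood at 0.17 ± 0.07 in RNA (edgeR adjusted p = 0.174), and Ubtf, which binds ribosomal DNA, at -0.16 ± 0.08 (edgeR adjusted p = 0.277). The TFIIH subunits Gtf2h3 and Gtf2h1 stood at -0.00 and -0.17, the FACT histone chaperone subunits Supt16 and Ssrp1 at -0.00 and -0.15, and the TFIIIC subunits Gtf3c2 and Gtf3c4 at -0.14 and -0.10. The Pol III factors include Crcp, a stalk protein of that enzyme without a Polr symbol, at 0.13 ± 0.08 in RNA and 0.02 ± 0.08 in footprints.

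The 15 assembly factors tested, of 16 listed, which help polymerase subunits come together in the cytoplasm, gave calls in both directions. In footprints 2 rose and 2 fell, and in RNA 1 rose and 1 fell, with medians of 0.02 and -0.00. Of all genes tested, 2.69% rose and 2.11% fell in RNA and 3.39% and 2.68% in footprints. Rpap1, a Pol II-associated protein, fell by 0.31 ± 0.08 on the log2 scale in RNA (edgeR adjusted p = 0.0413) and by 0.21 ± 0.05 in footprints (edgeR adjusted p = 0.0438). Uri1, a prefoldin-like protein, rose by 0.34 ± 0.09 in RNA (edgeR adjusted p = 0.0452) and by 0.33 ± 0.07 in footprints (edgeR adjusted p = 0.0188).

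Ruvbl1, an ATPase of the R2TP co-chaperone, fell by 0.36 ± 0.07 in footprints (edgeR adjusted p = 0.0119). The GTPase Gpn3, which acts in Pol II nuclear import, rose by 0.30 ± 0.07 (edgeR adjusted p = 0.0382). In RNA these 2 missed the edgeR threshold, at -0.31 ± 0.09 (adjusted p = 0.0655) and 0.29 ± 0.08 (adjusted p = 0.0731), and passed DESeq2 (adjusted p = 0.0273 and 0.0350). None of the edgeR calls held with every library left out: in RNA those of Rpap1 and Uri1 were lost without any 1 library other than siKrr1 C, with edgeR adjusted p up to 0.187 and 0.166. In footprints Rpap1 and Gpn3 were lost likewise (up to 0.208 and 0.190), Uri1 without siGFP, siNC or Lipo (0.0826, 0.0741 and 0.0674) and Ruvbl1 without siNC or Lipo (0.0738 and 0.0865).

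Transcripts made by Pol III itself are poorly covered here: 4 of 11 listed are in the tables and 3 could be tested. None passed. Rpph1, the RNA of ribonuclease P, stood at -0.05 ± 0.09 in RNA (edgeR adjusted p = 0.793) and Rmrp, the RNA of ribonuclease MRP, at -0.05 ± 0.15. Vaultrc5, a vault RNA, stood at -0.11 ± 0.20. Their reads in the footprint libraries are not translation, and there the values were 0.24, -0.01 and 0.36, with the smallest edgeR adjusted p at 0.106.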

How the data were processed

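RNA and ribosome footprints were measured in 12 libraries, 3 control and 3 Krr1 knockdown lysates per assay. The deposited values are raw read counts per gene. The submitters' processing notes name STAR, HTSeq and the build mm10 for the authors' alignment and counting, without a version. Annotation and strand setting were not given in the sources used here. Of the unique alignments, 66.4% to 68.6% were on genes in RNA and 36.6% to 42.4% in footprints. Alignments on no feature (31.2% to 33.4% and 57.5% to 63.3%) or ambiguous (0.187% to 0.206% and 0.0649% to 0.0725%) stayed out of library sizes and tests.

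For all genes kept by filterByExpr, quasi-likelihood tests were run in edgeR 4.0.16 (R 4.3.3, limma 3.58.1; TMM factors 0.984 to 1.04 in RNA and 0.988 to 1.02 in footprints; biological coefficient of variation 11.0% and 9.30%). P-values were Benjamini-Hochberg adjusted over all genes tested, with calls at an adjusted p under 0.05. Every p in the text is two-sided. Standard errors come from the F statistic. Alternatives were DESeq2 1.42.0, relative log expression factors, no filter, each library left out and, for translational efficiency, the lysate as a block. Lysates were paired because the labels state their division between assays, and by shared column names and letters. Over 6117 genes at 20 CPM or more, deviations from group means correlated between assays of 1 lysate with r of 0.266 to 0.713, and between lysates of a condition with -0.420 to 0.004. Deviations from a group mean cancel out over the lysates of that group. Positive values within lysates therefore bring negative ones between lysates, and the contrast is partly fixed in advance. No pair of libraries of a group was a duplicate (chi-square per degree of freedom 3.88 to 27.2).

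On simulated data edgeR recovered 85 of 100 genes changed 1.5-fold in RNA (14038 genes), 92 in footprints (13287) and 31 in translational efficiency (14236), and 100, 100 and 91 of those changed 2-fold. It also called 15, 14 and 5 unchanged genes. The changed genes had mean counts above 100, and all genes shared the common biological coefficient of variation. Correlation within a lysate was not simulated. The rates therefore do not carry over to genes with few counts, such as Polr2l in footprints. Footprint to RNA ratios use genes with at least 10 counts in each library. The members and the lists were chosen with earlier results of these data known. Given by library were subunits called in a comparison, the 2 large catalytic subunits of each enzyme, Polr3g, Polr3gl, and the subunit with the highest and the lowest fold change of each complex. Polr2k, Polr2m, the count ratios, the shares and the sums were chosen after their values were seen. From each factor list up to 4 called genes, or the 2 most abundant where none was called, were named. Crcp, Vaultrc5, Tubb3, Nes, Neurod1, Kdr, Eomes and the separate values of trophectoderm, endoderm and stem cell markers were added after their values were seen. All 31 subunits matched RefSeq genes of GRCm38.p6, the source of the coordinates, where 7 overlap a gene counted in the tables and 2 (Polr2d, Polr2k) have named pseudogenes. No coding lengths were used here, so CPM are compared between libraries and not between genes. The exceptions are the stated count ratios, shares and sums and the order of genes by footprint to RNA ratio. The counts, medians and sums cover all 31 subunits, but 1 of them is not reported here by itself or drawn.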

Additional observations from a re-analysis of the deposited data

Results flagged for a closer look

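With the lysate as a block, the footprint change of Polr2a exceeded its RNA change by 0.49 on the log2 scale (edgeR adjusted p = 0.0422). This call was lost when siGFP, siNC, Lipo or siKrr1 D was left out. Footprints were higher in 3 of 3 knockdown libraries than in every control, RNA in 2 of 3, and the footprint to RNA ratio in 3 of 3 lysates. Without the block the difference was 0.47 and did not pass.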

How the results depend on the processing

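Over all alternatives the footprint rise of Polr2a kept its call. The count of subunits called in RNA was 0 except without siKrr1 C, where it was 2 (Znrd1 and Polr3gl), so that leaving out 1 library gave 0 to 2. In footprints it was 1, and 2 with no filter and with DESeq2 (Polr2a and Znrd1), and 1 to 2 with a library left out. Znrd1 footprints passed with edgeR and no filter (adjusted p = 0.00564) and without siKrr1 A (0.0363), and Znrd1 RNA without siKrr1 C (0.0404). For translational efficiency the lysate block gave 1 subunit (Polr2a, 0.49) and changed no other subunit call, and left-out lysates gave 0 to 1. The blocked model with lysates left out was added after seeing the data. Within an assay no paired analysis was possible because control and knockdown lysates share no number.

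Over all genes, RNA calls were 582 higher and 477 lower with no filter, 666 and 536 with DESeq2, and 63 to 759 and 51 to 539 with a library left out. Footprint calls were 784 and 616 with no filter, and 67 to 791 and 64 to 546. Translational efficiency gave 2 higher with no filter, 2 with DESeq2, 5 higher and 1 lower with the block, and 0 to 11 and 0 to 1 with lysates left out. Medians with a library left out ranged in RNA from -0.03 to 0.06 (Pol I), -0.081 to -0.0033 (Pol II), -0.070 to -0.0019 (Pol III) and -0.14 to -0.04 (shared). In footprints they ranged from -0.04 to 0.05, -0.064 to -0.016, -0.05 to 0.02 and -0.14 to -0.076, and in translational efficiency from -0.068 to -0.0034, -0.038 to 0.023, -0.03 to 0.00 and -0.12 to -0.05. The cause of these shifts was not tested. The orders of levels per coding length, for RNA and for footprints, were not run. Depth limits Polr2l and Polr2k footprints most.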
